A study of Mus musculus with 2 samples.

Results

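The genes described here are 8 components of tumour necrosis factor (TNF) receptor signalling in mouse RAW264.7 cells: the receptor genes Tnfrsf11a, Tnfrsf1a, Tnfrsf1b and Fas, the ligand gene Tnfsf8, and the adaptor genes Traf2, Traf3 and Traf6. They were taken by symbol from a table of 18987 genes, and all 8 symbols were found. They had been chosen by function with their counts and ratios in these libraries already known, so their differences are given as a description. RAW264.7 cells are a macrophage-like line that turns into osteoclasts, the cells that resorb bone, on receipt of RANKL. One library came from cells with an shRNA against Cpeb4, which encodes a cytoplasmic polyadenylation element-binding protein, and 1 from cells with a control shRNA. Seeding was at 7500 cells per cm2 in both cases, 100 ng/ml RANKL followed after 24 h, and collection was at day 3, so RANKL treatment is common to both libraries. Whether either line was a clone or a pool, and which sequence the shRNAs target, is not stated by the sources used here.

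RANKL acts through RANK, the receptor encoded by Tnfrsf11a. Receptors of this superfamily have no enzyme activity of their own. They either bind TRAF proteins directly or, in the case of receptors with a death domain such as TNFR1 (Tnfrsf1a) and Fas, recruit adaptors such as TRADD and FADD. TRAF6 couples RANK to NF-kB and MAP kinase signalling and is required for osteoclast formation in mice, whereas TRAF2 and TRAF3 hold the kinase NIK (Map3k14) at a low level in resting cells and so restrain the noncanonical NF-kB pathway. CPEB proteins bind cytoplasmic polyadenylation elements (CPEs), short U-rich motifs in the 3′ UTR near the poly(A) signal.

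With 1 library per group, every difference compares these 2 libraries and has no replicate check. Total counts were 119350322 in the Cpeb4 shRNA library and 79399680 in the control library. Levels are CPM, TMM-scaled counts relative to library size, and ratios are Cpeb4 shRNA over control shRNA on the log2 scale, with a 95% interval that covers counting error only. The targeted gene Cpeb4 had 104 CPM in the Cpeb4 shRNA library and 345 CPM in the control library, a log2 ratio of -1.73 (-1.76 to -1.70). All 12 osteoclast markers were below 0, and 11 were at least 2-fold lower, with a summed level of 10593 CPM in the Cpeb4 shRNA library and 52012 CPM in the control library. All 10 markers of cycling cells were at least 2-fold higher, with a summed level of 2151 CPM in the Cpeb4 shRNA library and 175 CPM in the control library. Of 10 macrophage markers 9 were listed, with a summed level of 2960 CPM in the Cpeb4 shRNA library and 4675 CPM in the control library, and Csf1r had 1790 CPM in the Cpeb4 shRNA library and 2736 CPM in the control library. Of the 6 macrophage markers with a mean of at least 1 CPM, 4 had a log2 ratio below 0 and 2 above 0. Lyz2, above 0, had 11.4 CPM in the Cpeb4 shRNA library and 5.71 CPM in the control library. Cd14, also above 0, had 13.8 CPM in the Cpeb4 shRNA library and 10.8 CPM in the control library. Of the 6, Cd68 alone was at least 2-fold lower, at 570 CPM in the Cpeb4 shRNA library and 1174 CPM in the control library. Among macrophage markers under that mean, Adgre1 had 101 counts in the Cpeb4 shRNA library and 12 in the control library. Cx3cr1 had 59 counts in the Cpeb4 shRNA library and 6 in the control library. Fcgr1 went the other way, with 19 counts in the Cpeb4 shRNA library and 88 in the control library. Of 6 dendritic cell markers 3 were listed. Itgax had 1.38 CPM in the Cpeb4 shRNA library and 35.3 CPM in the control library, Zbtb46 had 3.59 CPM in the Cpeb4 shRNA library and 4.82 CPM in the control library, and Xcr1 had 10 counts in the Cpeb4 shRNA library and 3 in the control library. Of 8 lymphocyte markers 2 were in the table, with at most 0.100 CPM, and of 10 fibroblast and osteoblast markers 6 were in it, with at most 0.726 CPM. Markers of osteoclasts and of cycling cells thus move with the comparison throughout, and their part in the results on TNF receptor signalling was not tested. In such bulk RNA, fewer cells of a type and less RNA per cell cannot be told apart.

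The CPE matches in the 3′ UTRs are shown first, since CPEs are what CPEB proteins bind and since they are independent of the counts that chose the genes. The 3′ UTR of the longest complete protein-coding transcript of each gene (GENCODE M21, GRCm38) was searched for TTTTAT and TTTTAAT on the transcript strand only. Tnfrsf1b, Tnfsf8 and Traf6 each had 2 matches within the last 200 bases, and the other 5 genes had 0 there. The matches in the last 200 bases, and the last match of Traf3 and of Tnfrsf11a, which lie further from the end, are printed 5′ to 3′ on the transcript strand, with the CPE in capitals.
Tnfrsf1b, chr4:145213464-145213493, minus strand: taaataaattgaTTTTATcttttaatcatt
Tnfrsf1b, chr4:145213463-145213492, minus strand: aaataaattgattttatcTTTTAATcatta
Tnfsf8, chr4:63831323-63831352, minus strand: attttgtgtgctTTTTATttttttaataaa
Tnfsf8, chr4:63831314-63831343, minus strand: gctttttatttTTTTAATaaaagatatact
Traf6, chr2:101701535-101701564, plus strand: aaacttgtgataTTTTATtgtaatttatct
Traf6, chr2:101701636-101701665, plus strand: ctacaggagtatTTTTATaaaggatttatt
Traf3, chr12:111266756-111266785, plus strand: tttgaccgtatTTTTAATctgcctgttttg
Tnfrsf11a, chr1:105847159-105847188, plus strand: taggccttaataTTTTATctagaccttaac

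In Tnfsf8 the first printed CPE began 33 bases from the annotated end and lay 6 bases before an AATAAA or ATTAAA hexamer, the poly(A) signal. The second Tnfsf8 match shares bases with that hexamer. In Tnfrsf1b the CPEs began 19 and 12 bases from the end, both after the last hexamer, in Traf6 123 and 22 bases, in Traf3 382 bases and in Tnfrsf11a 811 bases. The annotated 3′ UTRs of Traf6, Traf2 and Tnfrsf1a had no such hexamer in their last 50 bases, where 79.6% of the genes searched had one. No CPE match was found anywhere in the annotated 3′ UTRs of Tnfrsf1a (490 bases), Fas (448 bases) and Traf2 (1428 bases). Counted over whole 3′ UTRs, Tnfrsf1b had 4 matches in 2324 bases, Traf6 4 in 4170, Tnfsf8 3 in 2799, Traf3 3 in 5088 and Tnfrsf11a 1 in 3115.

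Matches of this kind are common. Among the 9404 genes past the filter on low values (a mean of at least 1 CPM) with a 3′ UTR of at least 200 bases, 30.1% had a CPE match in the last 200 bases and 7.37% had at least 2. The 3 genes with terminal matches are also those whose level was lower by at least 2-fold, as given with the counts. The 8 genes were chosen with their ratios known, and Tnfsf8 passed the filter through the control library only. Of the 9404 genes, 10.7% of those with a terminal match were at least 2-fold lower and 15.2% at least 2-fold higher. Among those without one, 13.0% were lower and 11.9% higher. The median log2 ratio was 0.10 with a terminal match and -0.02 without. A link between matches and levels was not tested. A match is a string of letters in one annotated transcript, and binding by CPEB4 was not measured.

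Of the 8 genes, 7 passed the filter, and Fas did not. Of these 7, the levels of Tnfsf8, Tnfrsf1b and Traf6 in the Cpeb4 shRNA library were lower by at least 2-fold, that of Traf2 was higher by at least 2-fold, and Tnfrsf11a, Tnfrsf1a and Traf3 were within 2-fold. In the whole set of 12086 genes that passed it, 11.8% were lower by at least 2-fold and 14.6% higher. Under total-count scaling these shares were 8.60% and 20.6%. The median log2 ratio was -0.79 over the 7 genes and 0.05 over all genes past the filter, a figure the choice of genes sets in part.

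**Figure D1:**
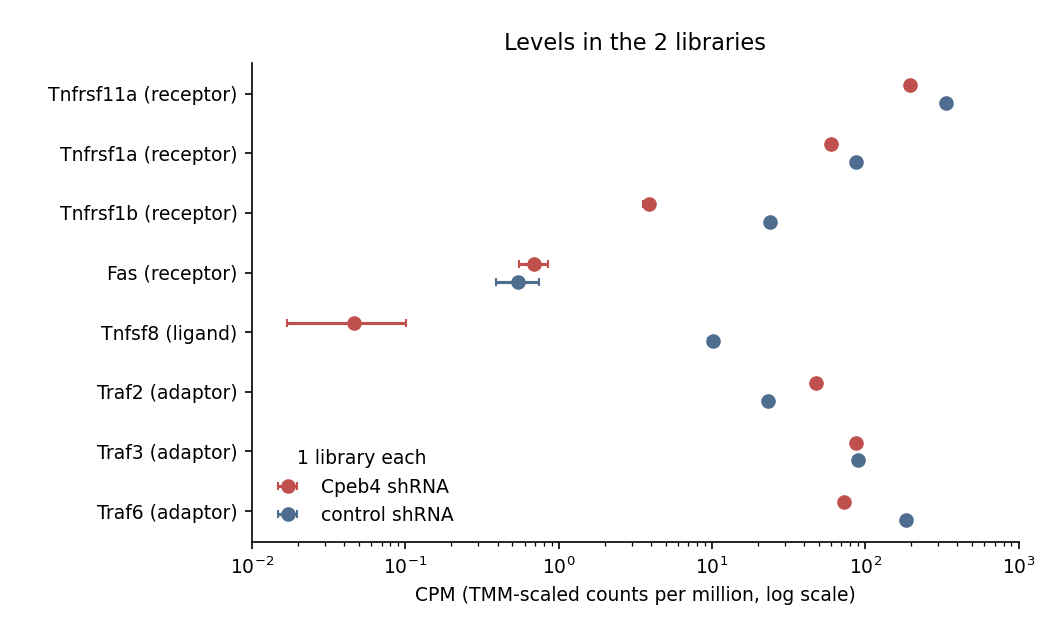
Level of each gene in CPM (log axis) in the Cpeb4 shRNA library (red, upper point) and the control library (blue, lower point), with exact Poisson 95% intervals for counting error. The Tnfsf8 points lie farthest apart, at 0.0464 CPM in the Cpeb4 shRNA library and 10.2 CPM in the control library, and the Traf3 points lie nearly together.

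Tnfrsf11a (ENSMUSG00000026321; mm10 chromosome 1, 105780718 to 105847981, plus strand), the RANK gene, had 25411 counts (196 CPM) in the Cpeb4 shRNA library and 24801 counts (339 CPM) in the control library. The log2 ratio was -0.79 (-0.81 to -0.76), a 1.72-fold lower level. RANK remained the most abundant receptor transcript of the superfamily in both libraries when levels were divided by transcript length, at 39.1 CPM per kb in the Cpeb4 shRNA library and 67.4 CPM per kb in the control library. Its share of the summed receptor level was 32.6% in the Cpeb4 shRNA library and 33.7% in the control library. RANK thus kept the first place and about the same share of the receptor transcripts in both libraries.

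Tnfrsf1a (ENSMUSG00000030341; chromosome 6, 125349362 to 125362484, plus strand) encodes TNFR1, the death-domain receptor for TNF. It had 7693 counts (59.5 CPM) in the Cpeb4 shRNA library and 6365 counts (86.9 CPM) in the control library, a log2 ratio of -0.55 (-0.60 to -0.50). Tnfrsf1b (ENSMUSG00000028599; chromosome 4, 145213463 to 145246870, minus strand) encodes TNFR2, the second TNF receptor, which has no death domain and binds TRAF2. It had 500 counts (3.86 CPM) in the Cpeb4 shRNA library and 1756 counts (24.0 CPM) in the control library, a log2 ratio of -2.63 (-2.78 to -2.49) and a 6.20-fold lower level. Both TNF receptor genes were below 0, and the difference was the larger for TNFR2. The count of Tnfrsf1a per count of Tnfrsf1b was 15.4 in the Cpeb4 shRNA library and 3.62 in the control library, a 4.24-fold change of the ratio within a library (log2 2.09, 1.93 to 2.24). Such a ratio does not depend on how the libraries are scaled to each other.

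Fas (ENSMUSG00000024778; chromosome 19, 34290666 to 34327772, plus strand), the gene of a death receptor that recruits FADD, had the lowest level of the 4 receptor genes, at 0.464 CPM per kb in the Cpeb4 shRNA library and 0.369 CPM per kb in the control library. It had 89 counts (0.688 CPM) in the Cpeb4 shRNA library and 40 counts (0.546 CPM) in the control library. The log2 ratio of 0.33 had an interval of -0.22 to 0.91, so a difference was not detectable at this depth under TMM scaling. Total-count scaling moved the ratio to 0.57 and the interval up by 0.23, so this outcome depends on the scaling.

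Tnfsf8 (ENSMUSG00000028362; chromosome 4, 63831308 to 63861347, minus strand) encodes CD30 ligand, a membrane protein that binds the receptor CD30. It had 6 counts (0.0464 CPM) in the Cpeb4 shRNA library, the deeper of the pair, and 747 counts (10.2 CPM) in the control library. The log2 ratio was -7.78 with a wide interval, -9.23 to -6.65, because so few counts lie on one side. It passed the filter through the control library only. No gene past the filter had a lower ratio (0 of 12086), but that rank rests on the 6 counts. With a pseudocount of 0.5 CPM the log2 ratio was -4.29 and 10 genes were lower, and with 2 CPM it was -2.58 and 81 genes were lower. By closeness of the log2 ratio over these 2 libraries, the nearest genes were Mzb1 at -7.03, Kdelr3 at -6.74 and Pla2g7 at -6.24. All were at or below 13 counts in the Cpeb4 shRNA library and, like Tnfsf8, passed the filter through the control library only. Since Tnfsf8 has the lowest ratio, its nearest genes are the next lowest, and a relation between them was not tested. For Tnfrsf11a the nearest were Aldh1b1, Cyb5d1 and Rab2a, all at -0.79. The CD30 gene Tnfrsf8 is not among the listed genes, all of which have at least 1 count in both libraries. The reason for its absence is not stated by the sources used here.

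The adaptor genes went different ways. Traf6 (ENSMUSG00000027164; chromosome 2, 101678429 to 101701669, plus strand), the ubiquitin ligase that RANK recruits, had 9363 counts (72.4 CPM) in the Cpeb4 shRNA library and 13488 counts (184 CPM) in the control library. Its log2 ratio was -1.35 (-1.39 to -1.31), a 2.55-fold lower level. Traf2 (ENSMUSG00000026942; chromosome 2, 25517982 to 25546940, minus strand), the adaptor of TNFR2 and of the TNFR1 complex, had 6166 counts (47.7 CPM) in the Cpeb4 shRNA library and 1713 counts (23.4 CPM) in the control library. Its log2 ratio was 1.03 (0.95 to 1.10), a 2.04-fold higher level that lies at the 2-fold threshold, and it was 0.99 under upper-quartile scaling. Traf3 (ENSMUSG00000021277; chromosome 12, 111166370 to 111267153, plus strand), which links TRAF2 and the cIAP ligases to NIK, had 11280 counts (87.2 CPM) in the Cpeb4 shRNA library and 6609 counts (90.2 CPM) in the control library. Its log2 ratio of -0.05 (-0.09 to -0.01) took the other sign under total-count scaling, at 0.18.

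**Figure D2:**
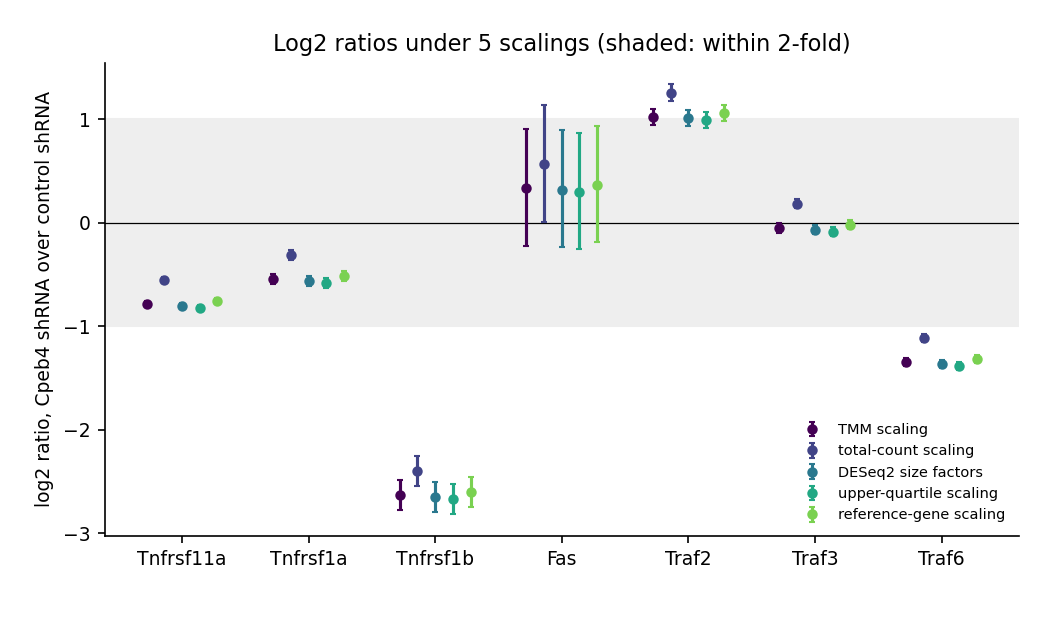
Log2 ratio of Cpeb4 shRNA over control shRNA for 7 of the genes under 5 ways of scaling the libraries, with 95% counting intervals (Tnfsf8, at -7.78, lies off this range and is left out). The shaded band is within 2-fold. Traf3 is the gene whose sign depends on the scaling, and Traf2 sits at the edge of the band.

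None of the 8 genes shares exon bases with another annotated gene, so counting without regard to strand would not mix them with an annotated neighbour's exons. Genes lying within an intron or across the gene body were annotated for Fas, Traf2 and Traf3, each with 0 shared exon bases.

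Ratios between the genes within a library were computed for all 28 pairs. Without Fas, which did not pass the filter, the ratio differed at least 2-fold between the libraries in 16 of 21 pairs. All pairs of the 21 that hold Tnfsf8 are among the 16. Tnfsf8 passed the filter through the control library only, so its pairs are no support. Without Tnfsf8 but with Fas, the count was 13 of 21 pairs. Over all pairs of genes past the filter the share was 45.5%, a set to which the pairs with Fas do not belong. Pairs share genes and are not separate evidence, and the choice of genes sets these counts in part. In 1 pair of the 28, Fas and Traf3, the counting interval held 0. The largest change among pairs without Tnfsf8 was that of Tnfrsf1b against Traf2, receptor against adaptor. The count of Traf2 per count of Tnfrsf1b was 12.3 in the Cpeb4 shRNA library and 0.976 in the control library, a 12.6-fold change. Between the adaptors, the count of Traf2 per count of Traf6 was 0.659 in the Cpeb4 shRNA library and 0.127 in the control library, a 5.19-fold change (log2 2.37, 2.29 to 2.46). The count of Traf3 per count of Traf6 was 1.20 in the Cpeb4 shRNA library and 0.490 in the control library, a 2.46-fold change (log2 1.30, 1.24 to 1.36). The receptor gene Tnfrsf11a and the gene of its adaptor differed less against each other, with 2.71 counts of Tnfrsf11a per count of Traf6 in the Cpeb4 shRNA library and 1.84 in the control library (log2 0.56, 0.52 to 0.61).

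All 7 TRAF genes passed the filter, and 1 was at least 2-fold lower, 3 were at least 2-fold higher and 3 were within 2-fold, with a median log2 ratio of 0.25. Over all genes past the filter, 11.8% were lower and 14.6% higher. The 1 lower gene of 7 (14.3%) is thus near the share of all genes, but it is Traf6, chosen with its ratio known. Without the 3 adaptor genes described above, 0 of 4 were lower and 2 higher. Their median was 0.70, or 0.93 under total-count scaling. Traf1, an adaptor without the RING domain of most TRAFs, had 12298 counts (95.0 CPM) in the Cpeb4 shRNA library and 1899 counts (25.9 CPM) in the control library. Its log2 ratio of 1.87 (1.80 to 1.94) was the highest of the family. Traf4 was at 1.15 (0.97 to 1.34), Traf7 at 0.25 and Traf5 at -0.81. Traf1 and Traf4 are thus past 2-fold beside Traf2, while Traf6 is the single TRAF gene past it on the lower side. The intervals of Traf4 (from 0.97) and Traf2 (from 0.95) reach below 2-fold. With 2-fold on the interval limit, 1 TRAF gene was higher.

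Dividing each TRAF level by transcript length gave the make-up of the family, whose sum was 104 CPM per kb in the Cpeb4 shRNA library and 92.2 CPM per kb in the control library. Traf6 held 11.3% of that sum in the Cpeb4 shRNA library, the fifth of the family, and 32.4% in the control library, the first. Traf1 held 26.6% in the Cpeb4 shRNA library, the first, and 8.18% in the control library. Traf2 held 15.1% in the Cpeb4 shRNA library and 8.33% in the control library, and Traf3 held 11.9% in the Cpeb4 shRNA library and 13.9% in the control library. With the union of all annotated exons as the length, an alternative added after seeing the data, Traf1 held 18.0% in the Cpeb4 shRNA library, behind Traf7 and Traf3, and Traf6 held 15.3% there and 38.9% in the control library. Traf7 shares 377 exon bases with other annotated genes and Traf5 shares 270, so their shares are uncertain.

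**Figure D3:**
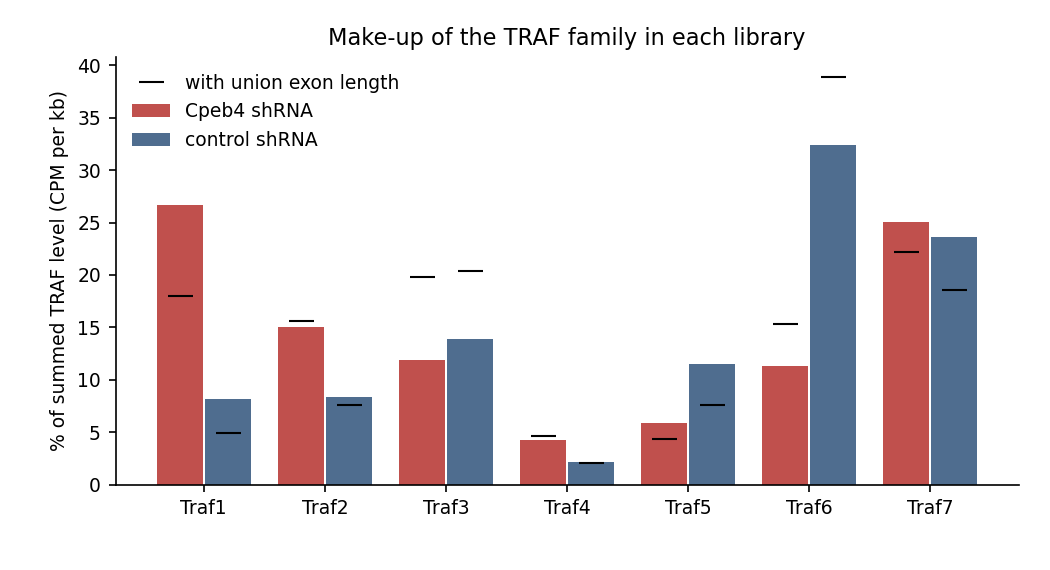
Share of each TRAF gene in the summed TRAF level (CPM per kb of transcript) in the Cpeb4 shRNA library (red, left bar) and the control library (blue, right bar), 1 library each. Black dashes give the share with the union of exons as length. Traf6 stands at 11.3% in the Cpeb4 shRNA library and 32.4% in the control library, and Traf1 at 26.6% in the Cpeb4 shRNA library and 8.18% in the control library.

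Of 28 TNF receptor superfamily genes, 19 were listed, 14 of them with a mean of at least 1 CPM. Among these 14, 5 were at least 2-fold lower and 1 at least 2-fold higher, with a median log2 ratio of -0.55, against 11.8% lower and 14.6% higher over all genes. Tnfrsf9, Tnfrsf25 and Cd40 passed the filter through 1 library only, being under 1 CPM in the other, so these 3 of the 6 calls are no support for a shift of the list. Without the 3 receptor genes described above, 4 of 11 were lower and 1 higher, with a median of -0.06, or 0.18 under total-count scaling. The lower ones beside Tnfrsf1b were Tnfrsf9, which encodes the costimulatory receptor 4-1BB, at -2.07 (72 counts in the Cpeb4 shRNA library and 171 in the control library), and Tnfrsf23, a mouse decoy receptor gene for TRAIL, at -1.71. The death receptor gene Tnfrsf25 was at -1.42, and Tnfrsf12a, the gene of the TWEAK receptor, was at -1.35. Cd40, whose product binds TRAF2, TRAF3 and TRAF6, was the higher one, at 2.89 (2.22 to 3.65) from 249 counts in the Cpeb4 shRNA library and 19 in the control library. Exons of Tnfrsf23 share 164 bases with an antisense gene, so its count is uncertain.

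Of 18 ligand genes, 9 were listed and 4 had a mean of at least 1 CPM, 2 lower and 2 higher. Over all genes past the filter, 11.8% were lower and 14.6% higher. Beside Tnfsf8, the lower one was Tnfsf12, which encodes TWEAK, at -4.66 (23 counts in the Cpeb4 shRNA library and 328 in the control library). Like Tnfsf8 it passed the filter through the control library only. It shares 731 exon bases with an annotated readthrough gene, Tnfsfm13, and is uncertain. Tnf, the ligand of TNFR1 and TNFR2, was higher at 1.92, with 1434 counts (11.1 CPM) in the Cpeb4 shRNA library and 214 counts (2.92 CPM) in the control library. Ltb, a lymphotoxin subunit gene, was higher at 1.25, with 429 counts in the Cpeb4 shRNA library and 102 in the control library. The TNF ligand transcript was thus higher where both TNF receptor transcripts were below 0.

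**Figure D4:**
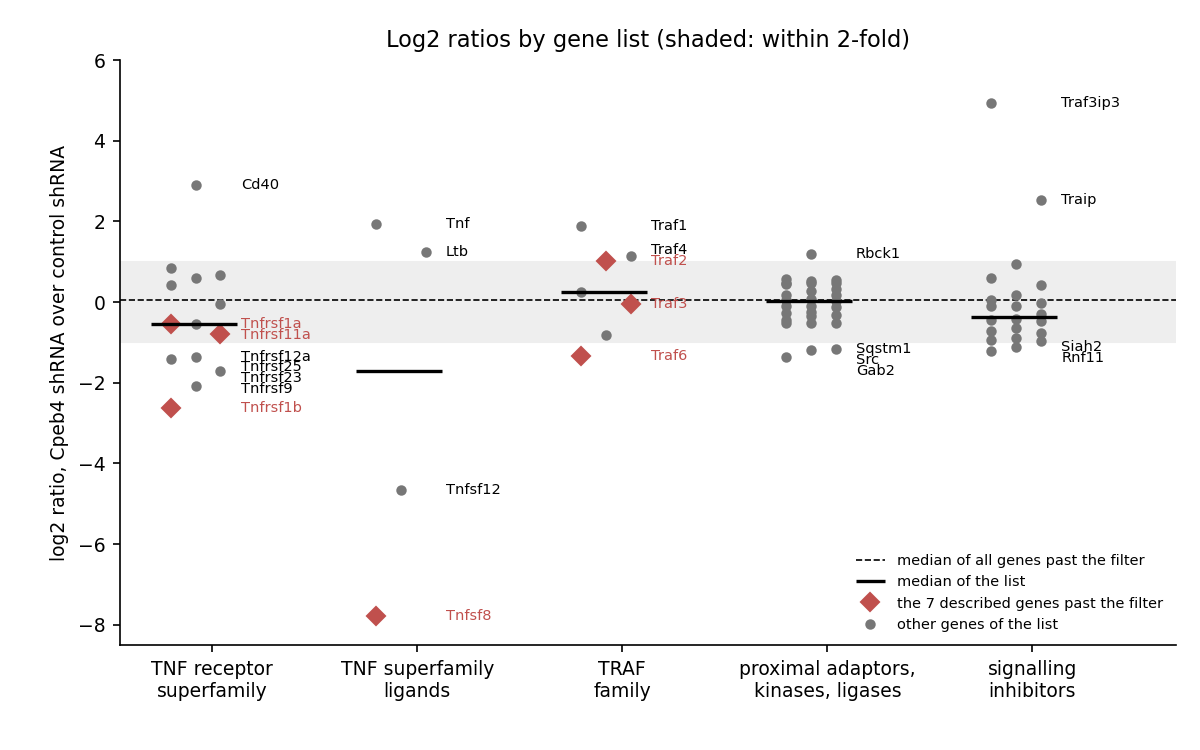
Log2 ratios of Cpeb4 shRNA over control shRNA for the genes past the filter in 5 lists, with the described genes as red diamonds, other genes as grey points, the median of each list as a black bar and the median of all genes past the filter (0.05) dashed. Genes past 2-fold and the described genes are named. The receptor list has its median at -0.55 and the TRAF list at 0.25.

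All 32 genes of the list of receptor-proximal adaptors, kinases and ubiquitin ligases were in the table, 29 of them at a mean of at least 1 CPM, and 25 of these were within 2-fold, with 3 lower and 1 higher. The share lower by at least 2-fold was 10.3%, near the 11.8% of all genes, and the share within 2-fold was 86.2%, against 73.6% of all genes. The median log2 ratio was 0.03, with -0.0093 under upper-quartile scaling and 0.26 under total-count scaling, where Gab2 alone of the 3 stayed past 2-fold. The lower ones were Gab2, an adaptor that binds RANK, at -1.36, the tyrosine kinase gene Src at -1.19 (-0.95 under total-count scaling), and Sqstm1 at -1.17 (-0.93), which encodes the TRAF6-binding scaffold p62 and shares 580 exon bases with the gene Mrnip on the opposite strand. The higher one was Rbck1, a subunit gene of the linear ubiquitin ligase LUBAC, at 1.18. Among the genes within 2-fold, 7 were named after their values were seen. Tradd at -0.25, Fadd at -0.27, Ripk1 at -0.45 and Casp8 at -0.51 encode proteins that act downstream of death-domain receptors, Birc2 at 0.07 and Birc3 at 0.47 encode cIAP ligases, and Map3k14 at 0.56 encodes NIK.

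Inhibitors and deubiquitinases of the pathway had a median of -0.37. Of 25 genes 24 were listed and 22 had a mean of at least 1 CPM, 18 of them within 2-fold, 2 lower and 2 higher. The share lower was 9.09%, against 11.8% of all genes past the filter, of which 14.6% were higher. The share within 2-fold was 81.8%, against 73.6% of all genes, so this list was not called more often than genes at large. The ligase genes Rnf11 and Siah2 were lower, at -1.22 and -1.11, and within 2-fold under total-count scaling, at -0.99 and -0.88. Traip, which encodes a ubiquitin ligase first described as a TRAF-interacting protein and known to act at stalled replication forks, was higher at 2.52. Traf3ip3 was higher at 4.94 (4.05 to 6.01), with 542 counts in the Cpeb4 shRNA library and 10 in the control library, passed the filter through the Cpeb4 shRNA library only, and shares 420 exon bases with a gene on the opposite strand. Tnfaip3 (A20) at -0.93, Cyld at -0.88 and Tank at -0.77 were within 2-fold and were named after their values were seen. Others within 2-fold went the other way, such as Bag4 at 0.95 and Tnfaip8l2 at 0.60. Under total-count scaling Bag4 was past 2-fold, at 1.18, and 3 genes of the list were higher. Bag4 shares 1042 exon bases with a gene on the opposite strand. In the list of 22, 15 ratios were below 0 and 7 above.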

How the data were processed

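The deposited table holds whole-number read counts per gene, 1 column per library. Reads were aligned with HISAT2 to mm10, per the submitters' processing notes. Which tool and annotation were used for counting, and how strand and multiply aligned reads were treated, is not stated by the sources used here. Every listed gene has at least 1 count in both libraries. Genes at 4 counts outnumber those at 3 (364 against 282 in the Cpeb4 shRNA library, 585 against 444 in the control library), so values may be estimates, and intervals are then approximate.

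Counts were scaled with TMM (edgeR 4.0.16, R 4.3.3). Intervals are exact Clopper-Pearson intervals of a gene's share of both counts, or, for ratios between genes, exact conditional or normal-approximation intervals. Intervals cover counting error only. PCR copies of a molecule are not independent reads, so the intervals may be too narrow even for that error. With 1 library per group no test was made. A count of 3 equals 0.0232 CPM in the Cpeb4 shRNA library and 0.0410 CPM in the control library. Calls use a 2-fold rule of size. GENCODE M21 gave positions, lengths and 3′ UTRs for 18935 of 18987 identifiers. Genes and lists were chosen with earlier results of these data known. Named were the 8 genes, list genes past 2-fold, all TRAF genes, and the 3 nearest ratios to Tnfsf8 and to Tnfrsf11a, predicted gene models left out. The calculation was tested on simulated data. Alternatives were DESeq2 1.42.0 size factors and other scalings, filters, pseudocounts, thresholds and thinning.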

Additional observations from a re-analysis of the deposited data

How the results depend on the processing

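No paired analysis was possible because there was a single library on either side. The log2 ratios of the 8 genes were recomputed under each scaling, pseudocount and thinning. Tnfsf8 ranged from -7.82 to -2.58, Tnfrsf1b from -2.67 to -2.15, Traf6 from -1.38 to -1.11, Traf2 from 0.97 to 1.26, Tnfrsf11a from -0.82 to -0.55, Tnfrsf1a from -0.58 to -0.31, Fas from 0.08 to 0.57 and Traf3 from -0.09 to 0.18. Total-count scaling added 0.23 to every log2 ratio, and the other scalings moved it by -0.01, -0.04 and 0.03. The number of the 8 genes at least 2-fold higher was 1, and 0 with upper-quartile scaling, a pseudocount of 2 CPM, 4-fold, or 2-fold on the interval limit. Their median was -0.55 with total-count scaling and -0.67 with no filter or at a mean of 10 CPM.
With total-count scaling 1039 genes were lower and 2487 higher. The median was then 0.28 over all genes, -0.31 over receptors, 0.49 over TRAF genes, 0.26 over proximal adaptors and -0.13 over inhibitors. Under the same scaling 2 receptors were higher, 1 proximal gene was lower, and 0 inhibitors were lower and 3 higher. With no filter, 2930 genes were lower and 3217 higher, 2 receptors and 2 proximal genes were higher, and medians were -0.060 for ligands, -0.030 for proximal genes and -0.20 for inhibitors. At a mean of 10 CPM, 907 genes were lower and 1025 higher, 3 receptors lower and 0 higher, 0 ligands lower and 0 higher, and 0 inhibitors higher, with medians of -0.79 for receptors, 0.10 for TRAF genes and -0.43 for inhibitors. The ligand median was -0.93 with a pseudocount of 0.5 CPM and -0.46 with 2 CPM. With 2 CPM, 3 receptors were lower and 0 higher, and 1 ligand and 1 TRAF gene were higher. At 1.5-fold, 2674 genes were lower and 3191 higher, 4 receptors higher, 2 TRAF genes lower, and 8 inhibitors lower and 4 higher. At 4-fold, 426 genes were lower and 582 higher, 2 receptors lower, 0 ligands higher, 0 TRAF genes lower and 0 higher, 0 proximal genes lower and 0 higher, and 0 inhibitors lower. With 2-fold on the interval limit, 1 ligand and 1 TRAF gene were higher. The construction of the filters, thresholds and scalings sets these shifts.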

Other observations

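Some genes of the receptor superfamily lie in the same region of a chromosome. On chromosome 6, Ltbr, the lymphotoxin beta receptor gene (125306571 to 125313885), had a log2 ratio of -0.55, as had Tnfrsf1a at 125349362 to 125362484. Cd27, at 125232622 to 125237010, was at -0.06 (-0.34 to 0.23). On chromosome 7, the genes Tnfrsf26, Tnfrsf22 and Tnfrsf23 lie in that order between 143607659 and 143685872. Their log2 ratios were 0.85 (0.55 to 1.17), 0.42 (0.28 to 0.56) and -1.71 (-1.82 to -1.60). The antisense gene E230032D23Rik overlaps this cluster and shares exon bases with Tnfrsf23 and Tnfrsf26, so both are uncertain.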
